A study of Mus musculus with 7 samples.

Results

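Genes of the lysosome were picked out of the array comparison of *Ctcf*-cKO and wild-type testes by their annotation. A coding gene was a member when the table of the study gives it a Gene Ontology cellular component term that contains the letters lysosom and no biological process term that contains steroid, sterol, immune or inflammatory. This gave 78 genes of the 3997 coding genes in the table, each with a single row. The table lists only transcript clusters (the probes of a transcript, read together) that passed a linear fold of 2 and the p threshold of the study, so every gene described here had been selected for a difference, and nothing is known here of genes that it does not list.

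In *Ctcf*-cKO mice, a *Stra8-iCre* transgene acts on 1 floxed copy of *Ctcf*, the other copy having been excised before (genotype *Stra8-iCre-Ctcf* f/Δ). The *Stra8* promoter drives the recombinase in spermatogonia and pre-leptotene spermatocytes. Somatic cells such as Sertoli and Leydig cells thus retain the floxed copy of *Ctcf*, but not the excised one. The study lists littermates with an excised copy and no transgene, so somatic cells of the compared genotypes can differ in *Ctcf* copies. The wild-type mice were littermates without a deleted copy, and their genotypes were given as f/f, wt/f or wt/wt with no transgene named. All were 12 to 15 weeks old and on a background that the methods spell C56BL/6J. The RNA, labelled as seminiferous tubules of testes, came from 3 wild-type mice and from 4 that were *Ctcf*-cKO, with 1 array for each mouse. The table gives 1 averaged log2 signal per genotype and 0 columns for single arrays. The spread between the mice of a genotype was therefore not computed here, no test was run, and precision is limited by the few arrays. Differences below are *Ctcf*-cKO minus wild-type on the log2 scale, of the authors' group averages. *Ctcf* itself has 0 rows in the table, so its own signal could not be read from these values.

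Lysosomes are acidic, membrane-bound compartments in which hydrolases break down proteins, sugars, lipids and nucleic acids delivered by endocytosis, phagocytosis or autophagy. A proton pump, with chloride transporters, keeps the lumen acidic, and most of the hydrolases reach it through mannose 6-phosphate tags. In the testis, Sertoli cells use lysosomes to digest residual bodies and dying germ cells, Leydig cells and macrophages are rich in them, and the acrosome of the sperm head is a related organelle that also carries hydrolases.

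Most lysosomal genes in the table had more signal in *Ctcf*-cKO than in wild-type. Of the 78 members, 72 (92.3%) were higher, against 38.7% of all coding genes in the table, and 6 were lower, against 61.3% of all coding genes. The differences of the 72 higher members ran from 1.01 to 2.22 with a median of 1.31, close to the median of 1.33 of all 1547 higher coding genes. The members thus stood apart from the coding genes at large by their direction and not by the size of their differences. Other sets in the table had the same direction, such as all 7 Leydig and all 9 Sertoli cell markers with a row. Past a linear fold of 3 were 21 members, all of them higher (26.9%, against 10.6% of all coding genes), and 0 were lower (against 8.43%). This contrast follows the direction. Among higher genes alone, 21 of 72 members and 425 of 1547 coding genes passed that fold, which are similar shares. Of those 21, 11 were hydrolases. Near the limit of the table, 13 higher members and 1 lower member had a difference of at most 1.1. The members were spread over the genome. On the assembled X chromosome lie 6 of the 72 higher ones (8.33%; *Ids*, *Rragb*, *Clcn5*, *Lamp2*, *Rab9* and *Gla*), against 11.4% of all higher coding genes. *Vamp7*, also higher, lies on an unlocalized X scaffold, and such scaffolds were not counted in either share. In bulk RNA, fewer cells of a type and less RNA per cell cannot be told apart, and the same holds for more cells and more RNA.

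**Figure D1:**
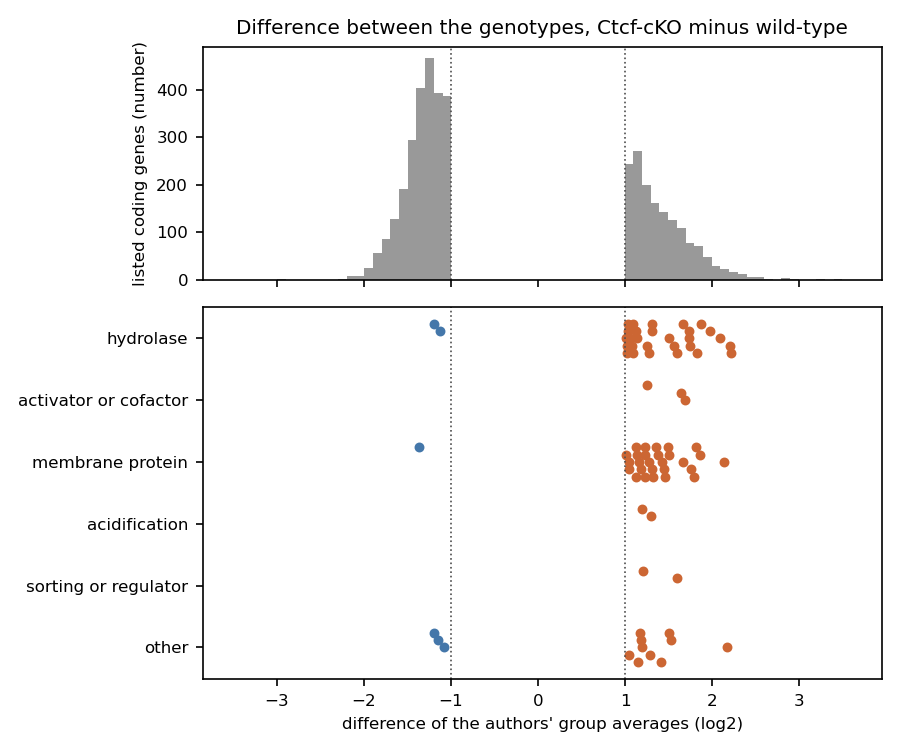
Top, number of coding genes in the table by the difference of the authors' group averages (*Ctcf*-cKO minus wild-type, log2); bottom, each of the 78 lysosomal genes as a point by class, orange where higher and blue where lower in *Ctcf*-cKO, with dotted lines at a linear fold of 2. Of the members, 72 lie on the right and 6 on the left, whereas most of the coding genes in the upper panel lie on the left.

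The promoters of the members were compared with promoters at large, since transcription factors of the TFEB family are known to bind many lysosomal genes at a site whose core is the E-box CACGTG. The window read was 250 bases before to 50 bases after each RefSeq start (GRCm38.p6), and 60 of the 78 members had one. The E-box, which reads the same on both strands, stood in the window of 15 of these 60 genes (25%, exact binomial 95% interval 14.7 to 37.9%). It stood in that of 8.91% of 17491 protein-coding genes and of 9.76% of the 1117 higher coding genes in the table that are not members and had a window. Of the hydrolases with a window, 9 of 22 (40.9%) held it, and of the membrane proteins 2 of 23 (8.70%). The longer form TCACGTG, which contains the E-box and was sought on both strands, was found in 9 of the 60 members (15%) and in 5% of the protein-coding genes. These are matches of letters, not bound sites, and the shares were not tested. The members were picked as lysosomal genes, from which this site is known, so a larger share can follow from that choice. Lysosomal genes without a row were not set apart, so the shares do not bear on the genotypes. The interval treats the genes as independent draws.

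The sites of 5 of the higher members and of *Arsa*, which was lower, are shown to place them on the promoter, 5′ to 3′ on the strand of the gene. Capitals mark the E-box with its flanking T or A where it belongs to the longer form. Distances are from a RefSeq start. For *Lgmn* and *Ctsa* that start, and the site, lie inside the span of the transcript cluster.
*Lgmn* (chr12:102439110-102439168, minus strand, E-box from 49 bases before the start): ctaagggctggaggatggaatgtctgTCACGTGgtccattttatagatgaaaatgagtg
*Ctsa* (chr2:164833749-164833778, plus strand, 12 bases before the start): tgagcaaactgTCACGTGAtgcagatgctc
*Gla* (chrX:134601167-134601226, minus strand, 194 bases before the start): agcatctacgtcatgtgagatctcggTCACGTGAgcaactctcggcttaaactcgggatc
*Gaa* (chr11:119267796-119267854, plus strand, 140 bases before the start): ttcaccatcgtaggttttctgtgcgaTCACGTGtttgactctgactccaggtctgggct
*Clcn7* (chr17:25133364-25133392, plus strand, 15 bases before the start): tccgtcgtcagTCACGTGggcaccgatga
*Arsa* (chr15:89477424-89477452, minus strand, 16 bases before the start): tcaactcagtgTCACGTGttgtctgctcc
*Ctsa*, *Gla* and *Clcn7* hold the longer form at a second place in the window, and *Rragb* at 3 places. In *Plbd1*, the other lower hydrolase, the site lies 44 bases after the start.

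Hydrolases made up 30 of the members, and 28 of them were higher in *Ctcf*-cKO. The 10 proteases on the hand-written list were all higher, with a range of 1.09 to 2.22 and a median of 1.78. *Lgmn*, which encodes the asparagine-specific endopeptidase legumain, averaged 8.83 in wild-type against 11.05 in *Ctcf*-cKO, a difference of 2.22 or a linear fold of 4.66. Its transcript cluster spans chr12:102394084-102439813, minus strand (build mm10 in the labels). The promoter site printed above lies inside this span, ahead of a RefSeq start within it. *Ctsb*, encoding the cysteine protease cathepsin B (chromosome 14, 63122462 to 63145923, plus strand), averaged 9.53 and 11.73, a difference of 2.20. *Tpp1*, whose product removes tripeptides from protein ends and is lost in a neuronal ceroid lipofuscinosis, averaged 7.71 and 9.80, a difference of 2.09. *Ctsh*, a cathepsin that also acts as an aminopeptidase, averaged 7.12 and 9.10 (1.98), and *Ctsa*, the protective protein of the galactosidase and neuraminidase complex, 7.36 and 9.18 (1.82). *Ctsl*, encoding cathepsin L, a protease that Sertoli cells are known to secrete, averaged 10.44 and 12.18 (1.74). The differences of *Ctsc*, *Ctso*, *Ctsf* and *Ctsz* were 1.60, 1.50, 1.28 and 1.09. Peptidases outside that list, classed by their terms, were *Ece1*, which activates endothelin (1.31), *Ggh*, which trims glutamate from folates (1.31), and the aminopeptidase *Lnpep* (1.06).

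The protein domains in the table, which did not enter the choice of the members, tie most of these proteases together. The domain Peptidase C1A, papain C-terminal, was given to 9 coding genes in the table, and all 9 were higher, against 38.7% of all coding genes. Of these, 7 are members already counted above (*Ctsb*, *Ctsc*, *Ctsf*, *Ctsh*, *Ctsl*, *Ctso* and *Ctsz*). The other 2 are *Ctss*, with a difference of 1.39, which its immune terms kept out, and *4930486L24Rik*, with 2.96, which has no lysosomal term in the table. *Ctsd*, which encodes the aspartic protease cathepsin D and marks lysosomes in most tissues, has no row.

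Enzymes that remove sugars, sulfate, lipids or nucleotides were also mostly higher, with a smaller median for the glycosidases than for the proteases. All 6 glycosidases were higher, with a median difference of 1.06, though not all lay near that value. *Man2b1*, which trims mannose from glycoproteins, *Gaa*, which degrades glycogen, *Ctbs*, encoding chitobiase, and *Gla*, the enzyme lacking in Fabry disease, had differences between 1.01 and 1.08. *Gla* averaged 5.66 in wild-type against 6.67 in *Ctcf*-cKO. *Ctbs* overlaps *Spata1*, a gene on the opposite strand that was lower by 1.35 on the log2 scale, from 10.60 in wild-type to 9.25. The 2 genes thus differed in opposite directions at 1 place in the genome. Of the 4 coding rows that overlap members on the opposite strand, 3 had the direction of their member.

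Sulfatases differed in direction among themselves. *Ids*, which acts on heparan and dermatan sulfate, and *Arsb*, which acts on dermatan sulfate, are lacking in mucopolysaccharidoses. Their differences were 1.67 (6.43 to 8.10) and 1.56 (7.50 to 9.06). *Arsa*, which removes sulfate from sulfatides, was lower, with 9.00 in wild-type against 7.81 in *Ctcf*-cKO, a difference of -1.19. It was the only gene of the hydrolase lists with a lower row, and its promoter holds the same TCACGTG as those of higher hydrolases.

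Among the lipid enzymes, *Asah1*, encoding acid ceramidase, averaged 7.20 and 8.93 (1.73), *Ppt1*, which takes palmitate off proteins, 9.85 and 11.10 (1.25), and *Pla2g15*, a lysosomal phospholipase, 6.79 and 7.92 (1.13). *Plbd1*, a phospholipase B-like gene, was lower, at 9.57 in wild-type against 8.45 in *Ctcf*-cKO, a difference of -1.12. The nuclease row, named for *Rnaset2a*, had a difference of 1.02 and also names *Rnaset2b*, so the 2 near-identical genes cannot be told apart. The row named for *Tmppe* (1.09) also names *Glb1*, encoding lysosomal beta-galactosidase, to which its hydrolase terms belong.

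**Figure D2:**
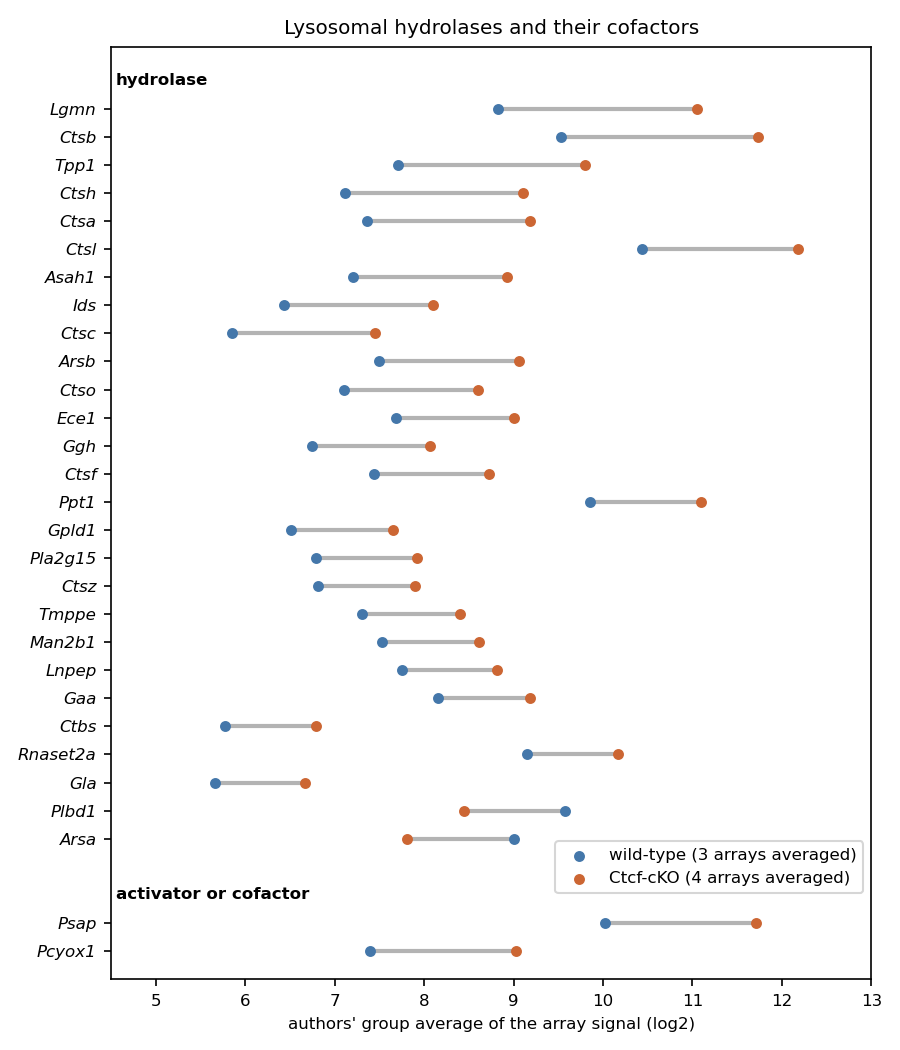
Authors' group average of the log2 array signal for the lysosomal hydrolases, activators and cofactors named on the axis, in wild-type (blue, 3 arrays averaged) and *Ctcf*-cKO (orange, 4 arrays averaged), ordered by the difference within a class; no error can be drawn from group averages. *Lgmn* and *Ctsb* have the widest gaps, and *Plbd1* and *Arsa* are the 2 hydrolases with the blue point on the right.

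The class of activators and cofactors held 3 members, all higher. *Psap*, the precursor of the saposins that present sphingolipids to their hydrolases and a protein that Sertoli cells secrete, averaged 10.02 in wild-type against 11.71 in *Ctcf*-cKO, a difference of 1.69. *Pcyox1*, put in this class by the hand-written list although it breaks down prenylated cysteines itself, averaged 7.39 and 9.03 (1.64).

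Membrane proteins made up 28 members, and 27 of them were higher, with a range of 1.01 to 2.14 and a median of 1.32. *Hgsnat*, the acetyltransferase that prepares heparan sulfate for degradation across the lysosomal membrane, averaged 8.40 in wild-type against 10.54 in *Ctcf*-cKO, a difference of 2.14. *Scarb2*, an abundant glycoprotein of the lysosomal membrane that also acts as a sorting receptor, averaged 7.46 and 9.25 (1.79). *Cd68*, a heavily glycosylated membrane protein of macrophage lysosomes, averaged 6.11 and 7.92 (1.81). *Lamp2*, one of the main structural proteins of the membrane and needed in autophagy, averaged 9.34 and 10.57 (1.23), while *Lamp1*, its partner in abundance, has no row.

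Several of the larger differences in this class belonged to proteins with their main known site elsewhere. *Cp*, encoding the plasma ferroxidase ceruloplasmin, which is also made by Sertoli cells, averaged 6.46 and 8.32 (1.86). *Slc44a2*, a choline transporter-like protein, averaged 8.28 and 10.04 (1.76), and *Lrp1*, an endocytic receptor of the cell surface, 8.31 and 9.98 (1.67). Other transporters and fusion proteins lay lower, among them *Slc30a2*, a zinc transporter (1.46), the syntaxin *Stx7* (1.42), and *Vamp7*, a vesicle SNARE (1.38). *Sidt2*, an RNA transporter of the lysosomal membrane, had the smallest difference, 1.01. The 1 lower membrane protein, *5330417C22Rik* (*Elapor1* in RefSeq), averaged 10.62 in wild-type against 9.25 in *Ctcf*-cKO, and its difference of -1.37 was the largest of the lower members.

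Non-coding rows lay within some of these genes. On the strand of the member, 4 non-coding rows overlapped *Rab12*, *Stx7*, *Rnf13* and *5330417C22Rik*, and each had the direction of its gene. On the opposite strand there were 3, over *Gnai1*, *Cst3* and *Col6a1*, and 2 of them had the direction of their gene. The one over *Gnai1* (chromosome 5, 18350250 to 18351900) was lower, with 7.91 in wild-type against 6.20 in *Ctcf*-cKO, where *Gnai1*, a G-protein alpha subunit, was higher by 1.50.

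Acidification was represented by 2 members, both chloride transporters that exchange chloride for protons. *Clcn7*, the exchanger of the lysosomal membrane, averaged 7.44 in wild-type against 8.64 in *Ctcf*-cKO (1.20), and *Clcn5*, its relative in endosomes, 6.79 and 8.09 (1.30). No gene of the proton pump, the V-ATPase, that has a row carries a lysosomal cellular component term there. Of the 32 genes on a textbook list of acidification, 6 have a row and all 6 were higher, while the other 26 have none. Beside both members these were *Atp6v0a1* (8.08 and 9.62, a difference of 1.54) and *Atp6v0e* (1.37), subunits of the membrane sector of the pump, and its accessory proteins *Atp6ap1* (1.53) and *Atp6ap2* (1.28). All listed subunits of the V1 sector, which hydrolyzes ATP, are without a row.

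Genes of sorting and signalling were 2 members, both higher. *Rragb*, a Rag GTPase that recruits the growth regulator mTORC1 to the lysosome, averaged 7.19 in wild-type against 8.79 in *Ctcf*-cKO (1.60). *Arl8a*, a GTPase that couples lysosomes to kinesin motors, averaged 7.77 and 8.98 (1.21). *Tfeb*, the gene of the transcription factor for which the E-box was examined, has no row.

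The remaining 13 members carry a lysosomal term without belonging to any of these classes, and 10 were higher. *Ass1*, an enzyme of arginine synthesis, averaged 8.91 and 11.08, a difference of 2.17, in a row that also names *Gm5424*. *Cd74*, the invariant chain of antigen presentation, had a difference of 1.53 (7.07 to 8.60). The others named by their size were *5430435G22Rik* (*Rab7b* in RefSeq, a small GTPase; 1.50), *Cd34*, a surface sialomucin of endothelial and progenitor cells (1.41), *Got1*, an aspartate transaminase (1.29), and *Syt7*, a calcium sensor of lysosome exocytosis (1.20). The class held 3 of the 6 lower members. *Pebp4* averaged 11.66 in wild-type against 10.47 in *Ctcf*-cKO (-1.19). *Kif2a*, a microtubule-depolymerizing kinesin, averaged 10.08 and 8.93 (-1.15), and *Spaca3*, a lysozyme-like protein of the acrosome, 8.40 and 7.32 (-1.08).

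**Figure D3:**
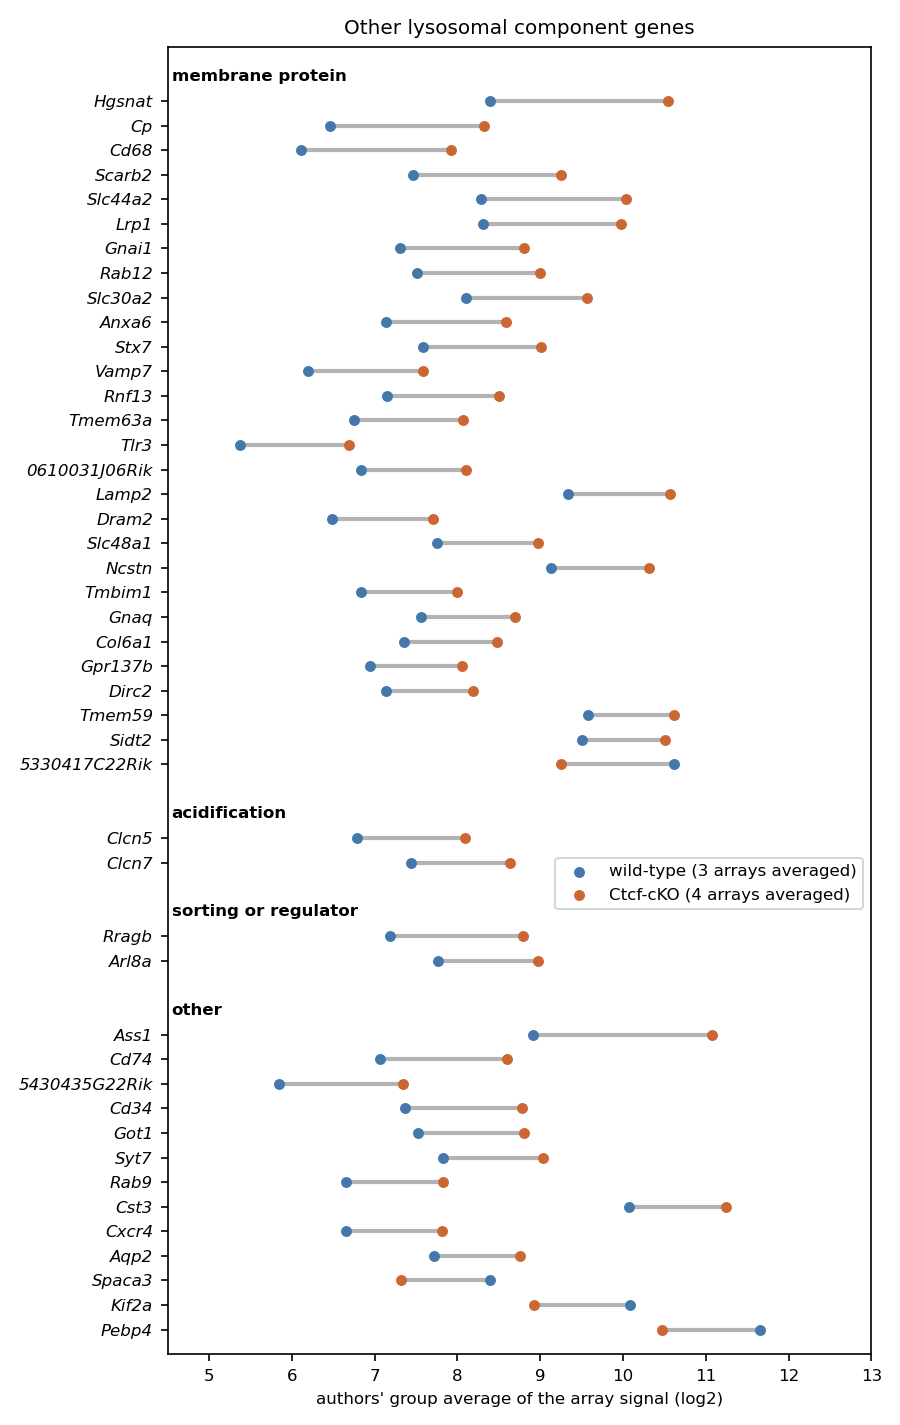
Authors' group average of the log2 array signal for the remaining members by class, in wild-type (blue, 3 arrays averaged) and *Ctcf*-cKO (orange, 4 arrays averaged), ordered by the difference. The orange point lies on the right in all but *5330417C22Rik*, *Spaca3*, *Kif2a* and *Pebp4*.

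Textbook lists of 181 genes of the lysosome were also looked up, including genes that carry no lysosomal term in the table. A row was found for 54 of them, 53 higher and 1 lower (*Arsa*). Of all coding genes in the table, 38.7% were higher and 61.3% lower. How many coding genes of the array have no row was not read here, so 54 of 181 has no background share. Rows of members hold 39 of the 54, so most of these values are the same. The other 127 have no row, so that the share of the whole list that differed is known only as a lower count. With a row were 12 of 19 proteases, 7 of 23 glycosidases, 4 of 7 sulfatases, 5 of 12 lipid and phosphate enzymes, 2 of 4 nucleases (which share a row), 5 of 10 activators and cofactors, 8 of 43 membrane proteins, 6 of 32 acidification genes and 5 of 31 genes of sorting and regulation. The remaining 15 of the 54 are not members. *Lipa*, lysosomal acid lipase, had the largest difference of these, 2.39, and was kept out by its sterol terms. *Grn*, encoding progranulin (1.46), *Pld3* (1.57), *Scpep1* (1.40) and *Gnptab*, which makes the mannose 6-phosphate tag (1.09), have no lysosomal cellular component term in the table. In all, the rule's exclusion removed 10 lysosomal genes, of which 9 were higher.

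**Figure D4:**
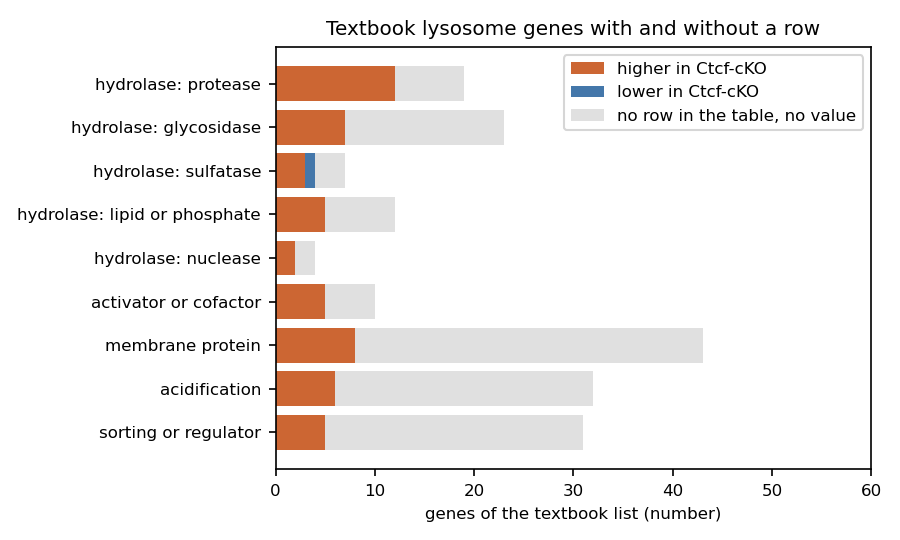
Number of genes of each textbook list with a higher row (orange), a lower row (blue) or no row (grey) in the table. The proteases are the list with the largest share in the table among those of over 10 genes, 12 of 19, and *Arsa* is the 1 blue gene.

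Markers of the cell types in the testis differed in the same table, where 38.7% of all coding genes were higher and 61.3% lower. All 7 Leydig cell markers with a row, of 8, were higher, by 1.39 to 2.97, as were all 9 Sertoli cell markers with a row, of 10, by 1.11 to 2.28. Leydig cells lie outside the tubules named in the labels, and their marker *Cyp17a1*, a steroid hydroxylase, was at 11.64 in wild-type against 13.03 in *Ctcf*-cKO. The log2 of the summed signal of the markers with a row went from 12.91 in wild-type to 14.81 in *Ctcf*-cKO for Leydig cells. For Sertoli cells it went from 12.16 to 13.61. Only markers past a linear fold of 2 have a row. Where all of them share a direction, a shift at least that large follows from this filter. For macrophages, 5 of 6 markers with a row, of 10, were higher, from 10.96 to 11.59 in summed signal, with *Lyz2* at 2.33 and *Aif1* lower at -1.36; *Adgre1*, *Cx3cr1*, *Cd163* and *C1qa* have no row.

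The other somatic lists differed less uniformly. Peritubular myoid markers were higher in 3 of 4 with a row, of 6 (11.71 to 11.97 in summed signal), and endothelial markers in 2 of 2 with a row, of 6 (7.70 to 8.83). Of the 7 markers of spermatogonia, only *Kit* has a row (2.28), a gene that Leydig cells are known to express too. All markers with a row were lower for primary spermatocytes (6 of 8, from 12.14 to 10.86 in summed signal), round spermatids (8 of 8, from 13.40 to 12.07) and elongating spermatids (2 of 11, from 11.73 to 10.71). *Cd68* is the 1 gene that is both a lysosomal member and a marker. The part of the cell types in the differences of the lysosomal genes was not tested.

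**Figure D5:**
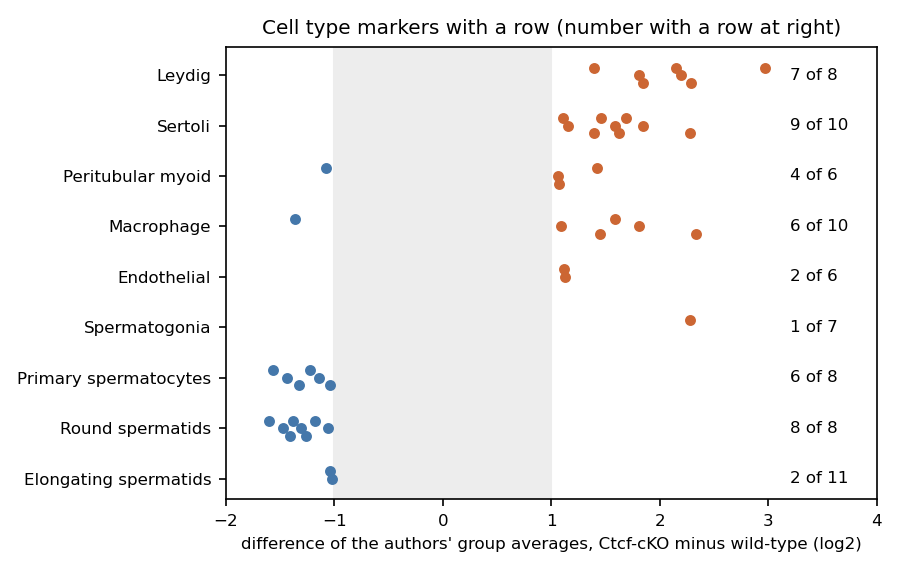
Difference of the authors' group averages (*Ctcf*-cKO minus wild-type, log2) for each cell type marker with a row, orange where higher and blue where lower; the grey band spans the differences that the table does not list, and the numbers at the right give the markers with a row. Leydig and Sertoli cell markers lie on the right, and spermatocyte and spermatid markers on the left.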

How the data were processed

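According to the submitters' processing notes, the authors normalized the arrays by RMA in the Affymetrix Expression Console 1.4.1 and compared genotypes in the Transcriptome Analysis Console 3.0 (build mm10). The deposited table holds, per transcript cluster, the log2 signal averaged over the arrays of a genotype (bi-weight average), annotation, and the authors' fold, p and adjusted p, which were not used. Its 7580 rows were filtered by the authors on fold and p. RMA shrinks the differences of dim probes; 5 members were under a log2 signal of 6 in wild-type and 0 in both genotypes.

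Decimal commas were read as points, and differences were taken from the averages, which have 2 decimals. Classes Coding and Complex were read, with 1 gene per first symbol. Members were classed by hand-written lists (37 genes) and otherwise by Gene Ontology terms (41). All 78 matched a RefSeq gene by ID; 4 have another symbol there. Genes named were the 6 largest differences in each class, all lower and all acidification members and defining markers; others were chosen after their values were seen. Some members that this rule covers are counted but not reported by name here. Members and lists were chosen with earlier results of these data known. Functions were tested on simulated data. Python 3.11.15, pandas 2.3.3, scipy 1.17.1 and matplotlib 3.10.9 were used.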

Additional observations from a re-analysis of the deposited data

How the results depend on the processing

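No paired analysis was possible because the table used here gives averages per genotype and 0 columns for single arrays; leaving out each mouse was not possible for the same reason. Past a linear fold of 3 there were 21 higher and 0 lower members, a share of 100% against 55.8% of all coding genes past that fold, and a median of 1.79 for the higher members. With the class Coding alone there were 26 higher and 2 lower members, 92.9% against 25% of all coding genes. When differences were counted from the median of the whole table, -1.15, there were 72 higher and 0 lower members past a fold of 2, a share of 100% against 99.5% of all coding genes, and a median of 2.46. The 2 members whose direction turned were *Plbd1* (0.02) and *Spaca3* (0.06), and 3 of the lower members stayed below 0; as the table holds only rows past the fold, this median is not that of the array. Classed by terms alone, acidification held 1 member, hydrolases 28 and membrane proteins 32. With the term exactly lysosome (57 higher, 6 lower), no exclusion by terms (81 and 7), a log2 signal of at least 6 in the brighter genotype (72 and 6), every row counted (72 and 6), and, chosen after seeing the data, rows that name 1 gene alone (68 and 6), the share of higher members lay between 90.5% and 92.3%. The share of promoters with a match was 15% for TCACGTG and 23.3% for the E-box in the 250 bases before the start alone. No member had over 1 row, so the choice of row changed 0 values.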
